A study of Mus musculus with 4 samples.

Results

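The genes described are Cthrc1, Lrrc15, Postn, Acta2 and Tagln, 5 markers of myofibroblasts out of the 32285 genes counted in a spatial survey of the injured mouse cortex. They were chosen by name and not by their values. Levels are given as unique molecular identifiers (UMIs, each standing for 1 captured messenger RNA) per 10000 UMIs of all genes. Each level was computed in spots that held at least 5 Col1a1 UMIs per 10000, called Col1a1-rich, and in spots with 0 Col1a1 UMIs, called Col1a1-free. Col1a1 encodes a chain of collagen I and was used to find tissue that contains fibroblasts, so its own contrast between these classes is no result.

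The assay was Visium, in which a tissue slice is laid on an array of spots whose barcodes record where each RNA was captured. In all, 8 cortical slices from 8 mice were measured on 4 arrays, 2 slices to an array. Wild-type (WT) mice gave 1 slice at rest and 1 slice at 2 days after photothrombotic (PT) injury (dpi), a light-induced clotting of cortical vessels, together with 2 slices at 7 dpi and 2 at 21 dpi. The last 2 slices, also at 21 dpi after PT injury, came from Cthrc1(creER); R26(DTA) mice, called deleter mice, in which tamoxifen turns on diphtheria toxin in cells that express Cthrc1. The study set these deleter slices aside because no deletion was detected, and age and sex were not given in the labels. A spot covers several cells of different types, so a lower level can mean fewer cells of a type or less RNA per cell, and these cannot be told apart.

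The slices held 827 to 1726 spots and 11332780 to 23677298 UMIs. The median spot held 12447 to 16158 UMIs in 7 slices and 2633.5 at 2 dpi. Rest and 2 dpi shared an array whose labels do not say which slice is which, so the narrow piece of 1017 spots was taken as rest and the piece of 1726 spots as 2 dpi, after the tissue outlines in the study's published images, and every value at rest or 2 dpi rests on that. Col1a1-rich spots numbered 112 and 392 at 7 dpi, 170 and 203 in WT slices at 21 dpi, and 274 and 193 in deleter slices. There were only 3 at rest and 26 at 2 dpi, of which 17 rested on 1 Col1a1 UMI, so no Col1a1-rich level is given for these slices. Time point, capture area and a sex-linked pattern went together in the comparison of 7 with 21 dpi and cannot be told apart. Both 7 dpi slices held 1281 to 1597 Xist UMIs, and both WT slices at 21 dpi held 1 to 4 Xist UMIs with 1564 to 2469 UMIs of 4 Y-linked genes. Deleter slice 2 held 1033 Xist UMIs at 21 dpi, and its member levels are given beside the others below.

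Myofibroblasts are activated fibroblasts that deposit extracellular matrix (ECM) and build contractile actin fibres, and TGFβ is their best-known inducer. Postn encodes periostin, a secreted protein that links collagen and fibronectin in healing tissue. Cthrc1 encodes a secreted protein with a collagen-like repeat that marks profibrotic fibroblasts in injured organs, and Lrrc15 encodes a membrane protein that TGFβ induces in fibroblasts. Acta2 encodes α-smooth muscle actin (αSMA) and Tagln encodes transgelin, an actin-binding protein. Vascular smooth muscle also makes both of the last, which is why Myh11, the myosin heavy chain of mature smooth muscle, was measured beside them. In the brain, resting fibroblasts lie in the meninges and around larger vessels and enter the lesion after injury.

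On GRCm38, the genome build of the counts, the genes lie apart from each other: Acta2 at chr19:34241090-34255590, Cthrc1 at chr15:39076932-39087121, Lrrc15 at chr16:30269302-30283256, Postn at chr3:54361109-54391037 and Tagln at chr9:45929619-45936058. RefSeq promoter sequences (GRCm38.p6) were matched by symbol for 3 of the 5 genes, with 4 entries in all, and none was matched for Cthrc1 and Tagln. The 250 bases before 3 of these starts are printed because these genes shared a higher level at 7 dpi. Capitals mark TATAAA in Postn. In Acta2 they mark, in order, GTCTG (the reverse of CAGAC, letters bound by SMAD proteins) and 2 stretches that differ by 1 base from the CArG box, the site of serum response factor. Lrrc15 held none of these letters.
Postn (chr3:54360857-54361106, + strand): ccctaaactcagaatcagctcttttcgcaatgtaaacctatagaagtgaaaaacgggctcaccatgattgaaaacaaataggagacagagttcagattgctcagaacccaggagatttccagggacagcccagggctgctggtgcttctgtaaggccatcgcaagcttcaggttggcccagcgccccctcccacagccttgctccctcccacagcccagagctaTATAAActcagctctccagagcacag
Acta2 (chr19:34255374-34255623, - strand): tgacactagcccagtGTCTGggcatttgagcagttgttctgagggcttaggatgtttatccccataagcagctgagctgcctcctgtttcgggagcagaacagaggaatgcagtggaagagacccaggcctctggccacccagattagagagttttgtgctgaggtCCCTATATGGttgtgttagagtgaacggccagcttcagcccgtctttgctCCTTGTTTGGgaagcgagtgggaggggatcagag
Lrrc15 (chr16:30283255-30283504, - strand): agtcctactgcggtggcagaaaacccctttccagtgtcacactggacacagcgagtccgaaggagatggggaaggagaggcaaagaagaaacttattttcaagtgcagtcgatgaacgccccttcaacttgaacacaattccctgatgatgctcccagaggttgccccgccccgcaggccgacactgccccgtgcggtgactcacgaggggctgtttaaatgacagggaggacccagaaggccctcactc
Counted back from the start site, TATAAA of Postn spanned -26 to -21, GTCTG of Acta2 spanned -235 to -231, and the CArG-like stretches of Acta2, CCCTATATGG and CCTTGTTTGG, spanned -84 to -75 and -34 to -25. The other Postn entry, at chr3:54359017-54359266, held CAGAC at -191 to -187. Both strands were searched. Among 32851 promoters of this length, 12.4% held TATAAA, 42.2% held CAGAC or its reverse, 1.47% held an exact CArG box and 18.6% held a CArG box with 1 base changed. The windows of these 3 genes held no exact CArG box, and a match or its absence is a description of letters only.

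Cthrc1, Postn, Acta2 and Tagln were higher in Col1a1-rich spots at 7 dpi than at 21 dpi in WT slices, and Lrrc15 was higher in value. UMIs of these spots were added up by slice and compared with edgeR, in which these 4 passed an adjusted p of 0.05 in this direction, as did 1.6% of the 12912 genes tested, and 2.3% of genes were lower at 7 dpi. Lrrc15 passed the filter on low counts only through the slices where it was high, so its call is a description and is not counted here. Cthrc1 and Lrrc15 differed most, by 2.51 and 3.38 on the log2 scale, whereas Postn, Acta2 and Tagln differed by 1.11 to 1.46. No marker had overlapping values between the time points. With 2 slices per group, 1 slice per mouse, p values rest on the spread between 4 mice, and these comparisons share slices with those that follow.

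**Figure D1:**
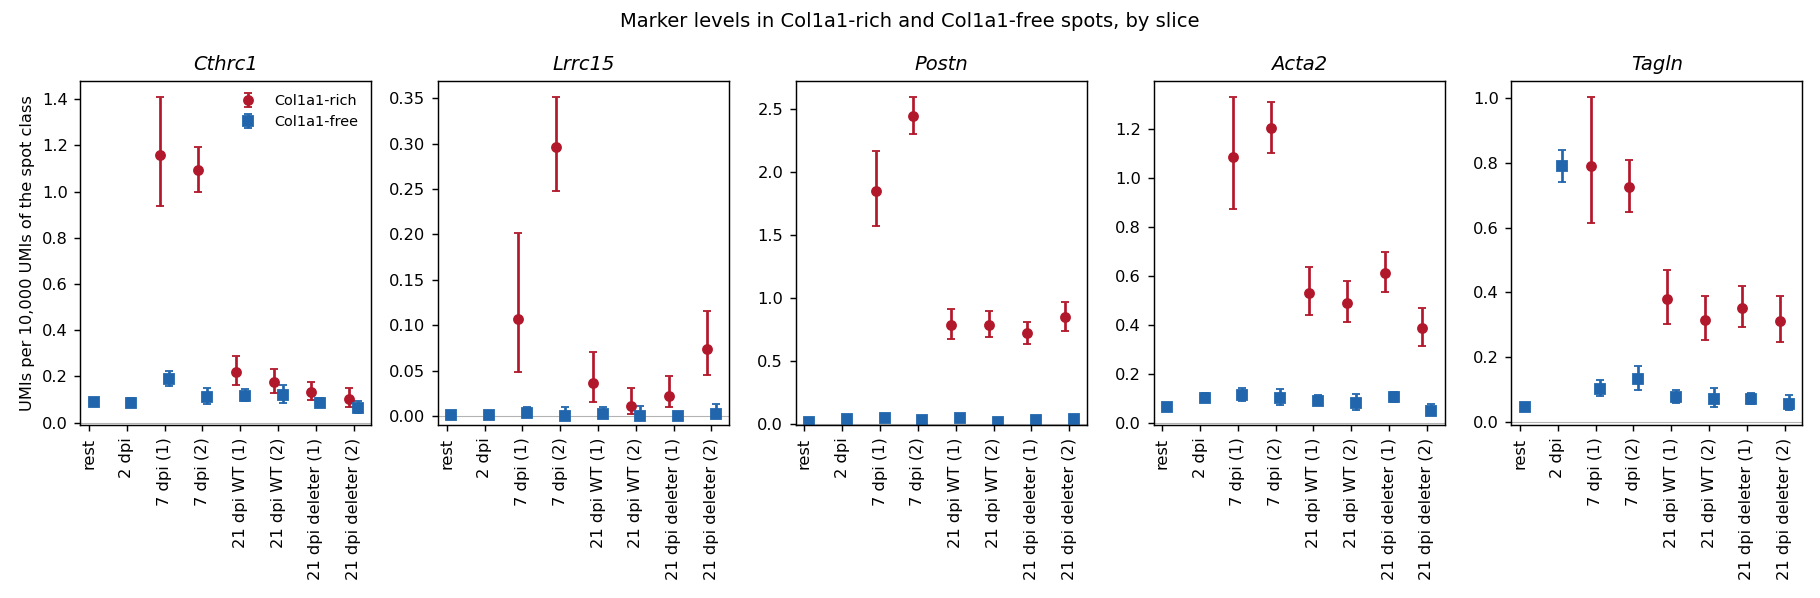
Level of each marker (UMIs per 10000 UMIs of the spot class, vertical axis) in each slice, in Col1a1-rich spots (red circles) and Col1a1-free spots (blue squares), with 95% exact Poisson intervals as bars. Red points at 7 dpi lie above those at 21 dpi for every marker, and Tagln at 2 dpi reached 0.789 in Col1a1-free spots, next to its Col1a1-rich levels at 7 dpi.

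Of the 5 markers, Postn gave the most UMIs in Col1a1-rich spots of all 6 slices compared. Its level was 1.85 and 2.44 UMIs per 10000 at 7 dpi, 0.787 and 0.789 in WT slices at 21 dpi, and 0.719 and 0.845 in deleter slices. The 7 dpi slices were both above the other 4, which lay close together. The difference between 7 dpi and WT 21 dpi was 1.46 on the log2 scale (SE 0.18, edgeR adjusted p = 0.0021). With Col1a1-rich set at 2 Col1a1 UMIs per 10000 the call was lost at the same size (1.46, edgeR adjusted p = 0.061).

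Cthrc1 stood at 1.16 and 1.09 UMIs per 10000 of Col1a1-rich spots at 7 dpi, from 98 and 480 UMIs. It was at 0.219 and 0.175 in WT slices and at 0.132 and 0.101 in deleter slices at 21 dpi, each from 26 to 50 UMIs. Group means were 1.12 ± 0.0458 at 7 dpi and 0.197 ± 0.0310 in WT slices at 21 dpi (SD, n = 2), so the slices of a group differed far less than the groups. The difference was 2.51 (SE 0.20, edgeR adjusted p = 0.00017) on the log2 scale.

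Lrrc15 gave the fewest UMIs of the 5. There were 9 and 130 UMIs in Col1a1-rich spots at 7 dpi (0.106 and 0.296 per 10000), 8 and 3 in WT slices at 21 dpi (0.0358 and 0.0105), and 8 and 19 in deleter slices (0.0220 and 0.0740). Slice 1 at 7 dpi lay nearer to deleter slice 2 than to slice 2 at 7 dpi, although the groups at 7 and 21 dpi did not overlap. As a description, its fitted log2 difference was 3.38 (SE 0.56, edgeR adjusted p = 0.0091), and without slice 2 at 7 dpi it was 2.26 (adjusted p = 0.31).

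The contractile markers Acta2 and Tagln had the smallest differences of the 5. Acta2 had levels of 1.09 and 1.20 UMIs per 10000 of Col1a1-rich spots at 7 dpi, of 0.532 and 0.491 in WT slices at 21 dpi, and of 0.612 and 0.385 in deleter slices. Tagln was at 0.791 and 0.726, at 0.380 and 0.315, and at 0.353 and 0.311 in the same order. For both genes the slices at 7 dpi lay above all 4 slices at 21 dpi. The differences between 7 dpi and WT 21 dpi were 1.17 for Acta2 (SE 0.17, edgeR adjusted p = 0.0052) and 1.11 for Tagln (SE 0.19, edgeR adjusted p = 0.011), and both calls were lost without slice 2 at 7 dpi (adjusted p = 0.051 and 0.061 with edgeR). Deleter slice 2, which carried the Xist pattern of the 7 dpi slices, was lower in value than both of them for all 5 markers. For Lrrc15 its exact Poisson interval (0.0445 to 0.1155) overlapped that of slice 1 at 7 dpi (0.0486 to 0.202). This slice came from 1 mouse and also differed from the 7 dpi slices in genotype and capture area. Whether the sex-linked pattern contributed to the marker levels was therefore not tested.

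Counted per Col1a1 UMI, the markers were also lower in value at 21 dpi. Col1a1 itself stood at 14.4 and 30.6 UMIs per 10000 of Col1a1-rich spots at 7 dpi and at 21.3 and 41.5 in WT slices at 21 dpi. For every 100 Col1a1 UMIs there were 8.02 and 3.57 Cthrc1 UMIs at 7 dpi and 1.03 and 0.423 at 21 dpi. Postn gave 12.8 and 7.99 at 7 dpi and 3.70 and 1.90 at 21 dpi, and Acta2 gave 7.53 and 3.93 against 2.50 and 1.18. The ratio of Cthrc1 to Postn UMIs was 0.624 and 0.447 at 7 dpi, 0.278 and 0.222 in WT slices at 21 dpi, and 0.184 and 0.120 in deleter slices. Exact 95% intervals of this ratio began at 0.400 or higher in both slices at 7 dpi and ended at 0.384 or lower in both WT slices at 21 dpi. Intervals on UMIs here and below cover counting error only.

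From the outermost spots to those next to them, Acta2 at 21 dpi fell more with depth below the tissue outline than Cthrc1 did. Rings of spots were counted inwards from the outline of each slice, which includes tears and the edge of the array, and this comparison was chosen after the values had been seen. At 21 dpi, Acta2 in Col1a1-rich spots was at 0.907 and 1.19 per 10000 in rings 1 and 2 of the WT slices and at 0.285 and 0.262 in rings 3 to 5. Deleter slices showed the same order, 1.54 and 0.814 against 0.309 and 0.0940. At 7 dpi slice 2 was instead at 1.22, 1.02 and 1.38 in rings 1 and 2, rings 3 to 5 and ring 6 and deeper, while in slice 1 nearly all Col1a1-rich spots (105 of 112) lay in rings 1 and 2, at 1.08. In the outer rings Acta2 levels of 7 and 21 dpi thus overlapped. What differed were the spots further in, where slice 2 alone stood for 7 dpi.

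**Figure D2:**
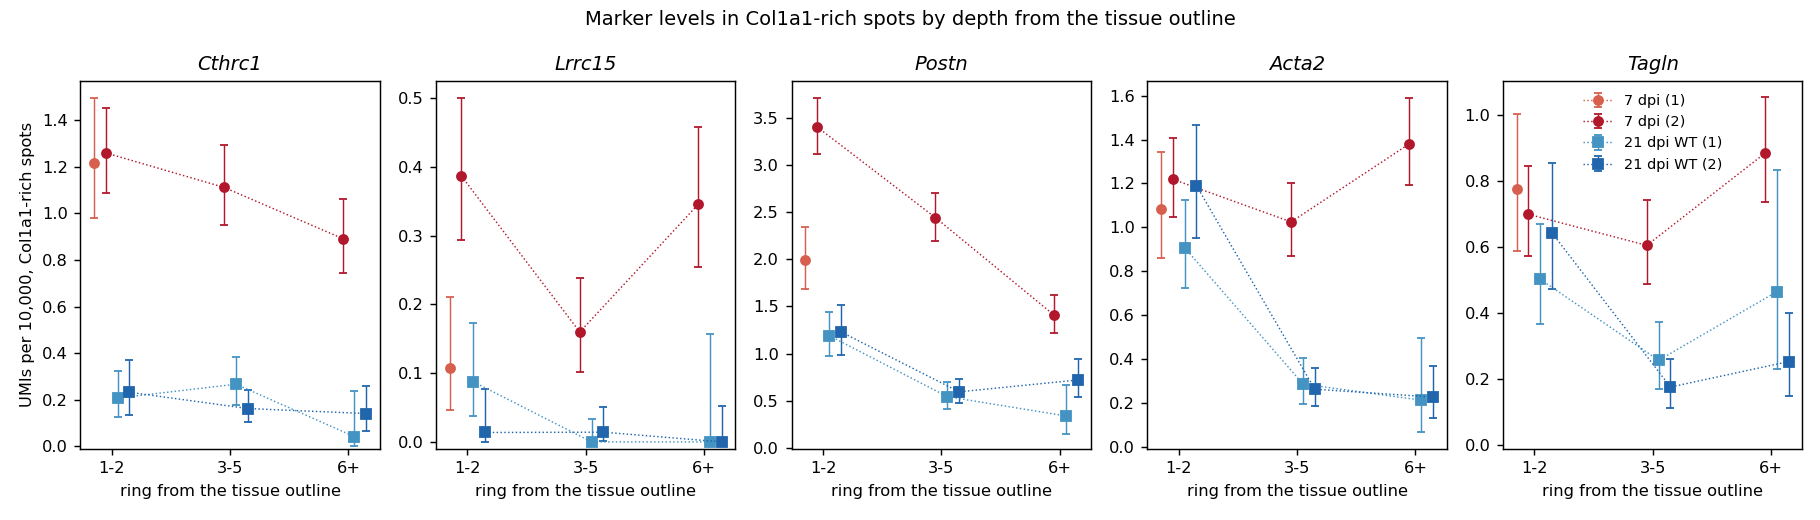
Level of each marker (UMIs per 10000, vertical axis) in Col1a1-rich spots of rings 1 and 2, 3 to 5, and 6 and deeper, counted from the tissue outline (horizontal axis), with 95% exact Poisson intervals, for the 7 dpi slices (red circles) and WT 21 dpi slices (blue squares). Acta2 in rings 1 and 2 overlapped between time points, whereas Cthrc1 at 7 dpi lay above both 21 dpi slices in all rings shown. Beyond ring 2, slice 2 alone stands for 7 dpi.

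Tagln followed the same layout less evenly. At 21 dpi it was at 0.503 and 0.643 per 10000 in rings 1 and 2, at 0.258 and 0.177 in rings 3 to 5, and at 0.466 and 0.254 deeper, the last from 11 and 18 UMIs. In slice 2 at 7 dpi it lay between 0.606 and 0.885 in all rings. Myh11, the smooth muscle myosin, was also highest in the outer rings at 21 dpi, at 0.328 and 0.164 in rings 1 and 2, with 2 and 5 UMIs in rings 3 to 5 and 0 deeper. In slice 2 at 7 dpi Myh11 had the same order, at 0.167, 0.0466 and 0.0288 from outside inwards, from 25, 7 and 4 UMIs. Whether smooth muscle of surface vessels contributed to the outer Acta2 and Tagln was not tested.

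Cthrc1 in rings 1 and 2 was at 1.22 and 1.26 per 10000 at 7 dpi and at 0.208 and 0.233 in WT slices at 21 dpi. In rings 3 to 5 it was at 0.267 and 0.163 in these WT slices, and deeper at 0.0423 (1 UMI) and 0.141. Deleter slices were at 0.218 and 0.108 in rings 1 and 2 and at 0.119 and 0.0846 in rings 3 to 5. Slice 2 at 7 dpi was at 1.11 in rings 3 to 5 and 0.892 deeper. Restricted to the Col1a1-rich spots of rings 1 and 2, Cthrc1 kept its call (2.50 on the log2 scale, SE 0.25, edgeR adjusted p = 0.0033). The 3 other genes that passed the filter did not. Their differences were 1.17 for Postn, 0.15 for Acta2 (SE 0.24) and 0.37 for Tagln, with edgeR adjusted p values of 0.14, 0.89 and 0.69. Far fewer spots entered this fit, and 42 genes were called in it in place of 503. Postn was highest in the outer rings at both times, at 3.40, 2.44 and 1.41 from outside inwards in slice 2 at 7 dpi and at 1.19, 0.543 and 0.339 in WT slice 1 at 21 dpi, as was Col1a1 (49.7, 24.3 and 16.7 in slice 2 at 7 dpi).

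Cthrc1, Postn, Acta2 and Tagln were higher in Col1a1-rich than in Col1a1-free spots at both time points, and Lrrc15, with hardly any UMIs in Col1a1-free spots, was higher in value. At 7 dpi the differences were 6.46 for Lrrc15, 5.74 for Postn, 3.48 for Acta2 and 2.76 for Tagln on the log2 scale, with Cthrc1 between the last 2. Apart from Lrrc15, which the filter on low counts admitted through its Col1a1-rich values and which is not counted, all passed edgeR's test with the slice as a block, where 21.2% of 14147 genes were higher and 21.5% lower in Col1a1-rich spots, so a call here is common among genes at large. At 21 dpi the differences were 4.59 for Postn, 3.83 for Lrrc15, 2.66 for Acta2, 2.32 for Tagln and 0.79 for Cthrc1, again called for these 4, beside 28.9% of genes higher and 26.6% lower.

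Cthrc1 was the marker whose contrast with the surrounding tissue differed most clearly between the times. Its Col1a1-rich level was 6.18 and 9.92 times its Col1a1-free level at 7 dpi, 1.87 and 1.45 times in WT slices at 21 dpi, and 1.54 and 1.61 times in deleter slices. In Col1a1-free spots Cthrc1 was at 0.187 and 0.110 per 10000 at 7 dpi, at 0.117 and 0.121 in WT slices at 21 dpi, and at 0.0902 at rest. The levels at 7 and 21 dpi differed by less than both slices at 7 dpi did from each other, and the value at rest was below these 4. The contrast was larger at 7 dpi by 2.21 on the log2 scale (SE 0.32, edgeR adjusted p = 0.0083), a call made in this direction for 0.82% of genes. This call was lost at 2 Col1a1 UMIs per 10000 (1.96, edgeR adjusted p = 0.057) and without slice 2 at 7 dpi (1.95, edgeR adjusted p = 0.074). The call of Cthrc1 between spot classes at 21 dpi (edgeR adjusted p = 0.020) was lost with DESeq2 (adjusted p = 0.068) and without WT slice 1 (0.56 on the log2 scale, adjusted p = 0.23 with edgeR).

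The contrast of the other markers was not called as different between the times. The differences were 2.63 for Lrrc15 (edgeR adjusted p = 0.49), 1.16 for Postn (0.29), 0.83 for Acta2 (0.12) and 0.45 for Tagln (0.49), larger at 7 dpi in value. For Postn the value turned to -0.29 without WT slice 1, and it was called with no filter on low counts (1.20, edgeR adjusted p = 0.017). Postn remained far above the surrounding tissue at 21 dpi, at 16.6 and 65.1 times its Col1a1-free level in WT slices after 37.6 and 86.8 times at 7 dpi. These Col1a1-free levels rested on 36 and 4 UMIs in the WT slices at 21 dpi and on 35 and 11 UMIs at 7 dpi. Acta2 was at 9.65 and 12.1 times at 7 dpi and 5.93 and 6.23 times at 21 dpi, and Tagln at 7.81 and 5.56 and then 4.96 and 4.53 times. Lrrc15 gave 0 to 2 UMIs in the Col1a1-free spots of each slice, and in slice 2 at 7 dpi its Col1a1-rich level was at least 38.5-fold higher, against a floor of 3 UMIs in the free spots of that slice.

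The share of each gene's UMIs that lay in Col1a1-rich spots was highest for Postn and Lrrc15. In slice 2 at 7 dpi these spots held 32.5% of all UMIs, with 92.8% of Postn, 91.5% of Lrrc15, 79.6% of Cthrc1, 75.8% of Acta2 and 68.0% of Tagln. In slice 1 they held 5.64% of all UMIs, with 52.3% of Postn and 27.1% of Cthrc1. In WT slices at 21 dpi they held 12.8% and 25.2% of all UMIs, with 54.0% and 79.2% of Postn but only 22.6% and 36.8% of Cthrc1. In both WT slices at 21 dpi, and also in slice 1 at 7 dpi, most Cthrc1 UMIs thus came from outside Col1a1-rich spots.

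Away from Col1a1-rich spots the markers had different profiles. In slice 2 at 7 dpi, Postn was at 2.44 in Col1a1-rich spots, 0.312 in spots 1 step away, 0.106 at 2 steps and 0.0128 at 10 steps and more. Cthrc1 in this slice was at 1.09, 0.194, 0.159 and 0.0766 over the same steps, and Acta2 at 1.20, 0.312, 0.142 and 0.230. In this slice Postn therefore approached the limit of counting with distance, from 2 UMIs in the farthest spots. Cthrc1 fell less from 2 steps to the farthest spots, which held 12 UMIs, and its intervals there overlapped. Acta2 was higher in value in the farthest spots than at 2 steps. Slice 1 at 7 dpi differed, with Postn at 0.0436 from 20 UMIs at 10 steps and more. Acta2 in slice 1 was at 1.09, 0.451, 0.230 and 0.0915 over the same steps, lowest in the farthest spots, and Cthrc1 was at 1.16, 0.344, 0.153 and 0.207. At 21 dpi in WT slice 1, Cthrc1 was at 0.219 in Col1a1-rich spots, 0.0782 at 1 step and 0.107 at 10 steps and more, with overlapping intervals from 1 step outwards.

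**Figure D3:**
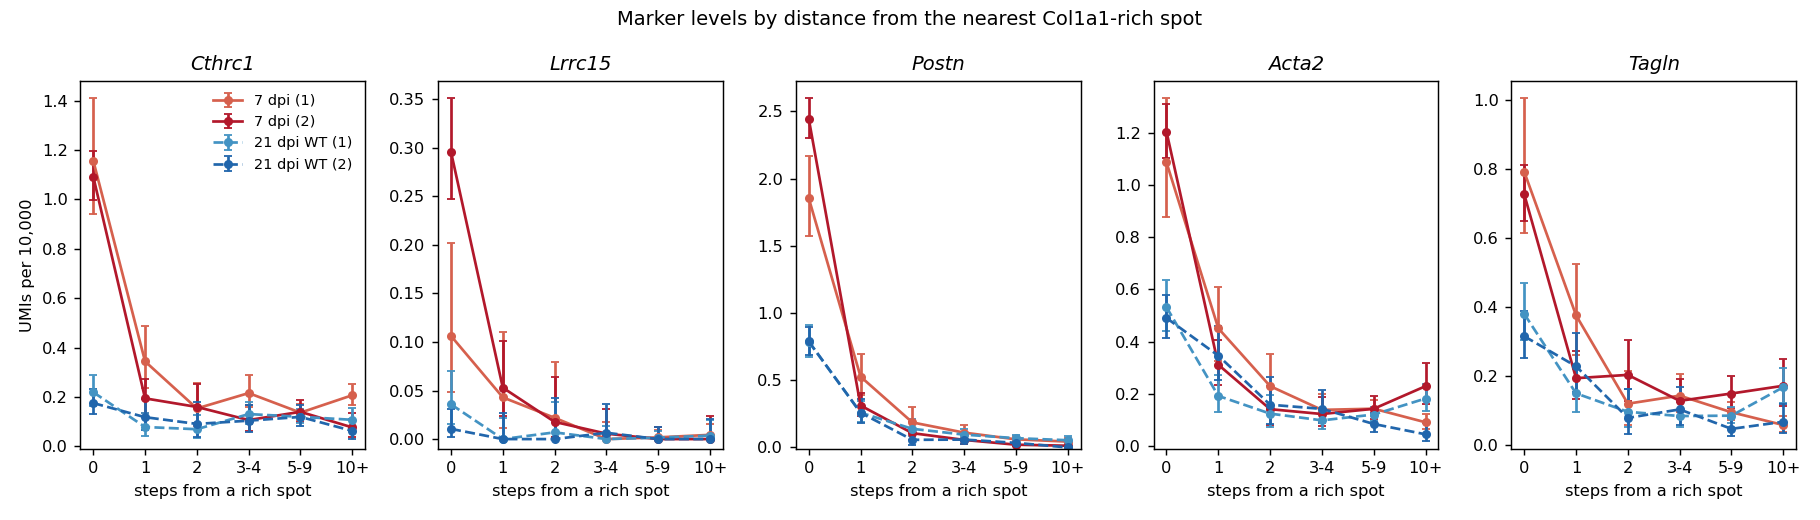
Level of each marker (UMIs per 10000, vertical axis) in Col1a1-rich spots (0 steps) and in spots 1, 2, 3 to 4, 5 to 9 and 10 or more array steps away (horizontal axis), with 95% exact Poisson intervals, for the 7 dpi slices (solid red) and WT 21 dpi slices (dashed blue). Postn went from 2.44 to 0.312 within 1 step in slice 2 at 7 dpi, and Cthrc1 in WT slice 1 at 21 dpi went from 0.219 to 0.0782.

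In slice 2 at 7 dpi and in WT slice 2 at 21 dpi, Postn was higher in value at each step of Col1a1 content. The former went from 0.0282 per 10000 in Col1a1-free spots through 0.576 at 5 to 10 Col1a1 UMIs per 10000 and 2.68 at 20 to 50 to 6.97 at 50 and above. The latter went from 0.0121 through 0.399 and 1.01 to 1.41. Cthrc1 went from 0.110 through 0.449 and 1.40 to 1.76 in slice 2 at 7 dpi, but in WT slice 2 at 21 dpi it was at 0.121, 0.167, 0.229 and 0.178, with overlapping intervals. Lrrc15 reached 0.522 and Acta2 2.04 in the spots richest in Col1a1 of slice 2 at 7 dpi. These grades share the libraries and the spots of the classes above and carry no test of their own.

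**Figure D4:**
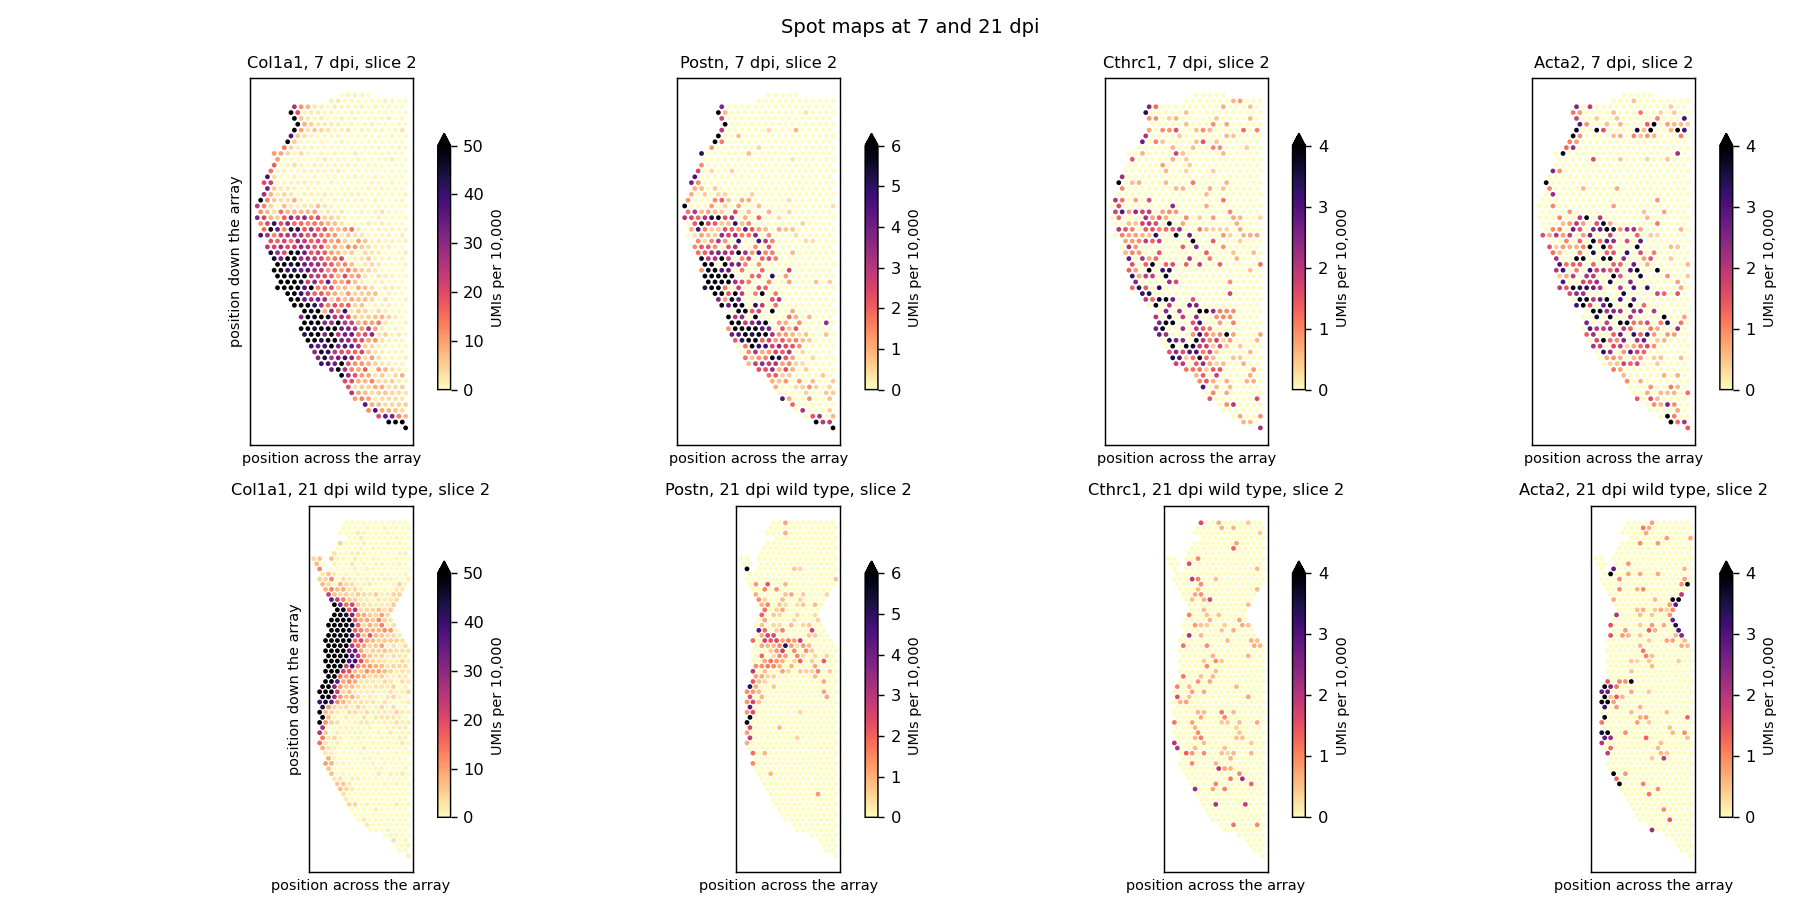
Spot maps of Col1a1, Postn, Cthrc1 and Acta2 in slice 2 at 7 dpi (top) and WT slice 2 at 21 dpi (bottom), with positions on the array on both axes and colour for UMIs per 10000, capped at 50 for Col1a1, 6 for Postn and 4 for Cthrc1 and Acta2. Postn and Cthrc1 followed Col1a1 at 7 dpi (mean Pearson r with Col1a1 of 0.644 and 0.395), and at 21 dpi Cthrc1 spots were scattered over the slice (0.0954).

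Correlations over spots describe how the markers shared their places. They are Pearson's r of log(1 + UMIs per 10000) over the 978 and 947 spots at 7 dpi and the 1339 and 827 spots in WT slices at 21 dpi, averaged over the 2 slices. Spots of a slice share a library and neighbours share tissue. Cthrc1 and Postn correlated at 0.389 at 7 dpi and 0.0548 at 21 dpi, and Cthrc1 and Acta2 at 0.263 and 0.0404. Lrrc15 and Postn stood at 0.199 and 0.169, and Postn and Acta2 at 0.330 and 0.219. Acta2 and Tagln were at 0.382 at 7 dpi and 0.375 at 21 dpi, and reached 0.471 in deleter slices.

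Sparse counts lower these values. With each spot thinned to 2000 UMIs, Cthrc1 and Postn were at 0.186 at 7 dpi and 0.0165 at 21 dpi, and Acta2 and Tagln at 0.173 and 0.179. Within Col1a1-rich spots alone, Cthrc1 and Postn were at 0.329 and 0.0271 and Acta2 and Tagln at 0.344 and 0.420. For Postn at 7 dpi, a spot and the mean of its neighbours correlated at 0.463 and 0.758, next to 0.484 and 0.578 in the later WT slices. For Cthrc1 the slices at 7 dpi gave 0.230 and 0.481, and those at 21 dpi gave 0.127 and 0.0711.

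The contractile markers correlated more with smooth muscle myosin at 21 dpi, in value, than at 7 dpi. Acta2 and Myh11 correlated at 0.148 over all spots at 7 dpi and 0.328 at 21 dpi, and at 0.144 and 0.498 within Col1a1-rich spots. Tagln and Myh11 were at 0.127 and 0.266 over all spots. In Col1a1-rich spots there were 18.4 and 14.7 Acta2 UMIs for each Myh11 UMI at 7 dpi (exact 95% intervals 7.61 to 58.0 and 10.5 to 21.2). The ratio was 3.72 and 8.24 in WT slices and 4.11 and 3.41 in deleter slices at 21 dpi, and 3.16 in Col1a1-free spots at rest. Slices at 7 dpi were thus above the other Col1a1-rich values, although their intervals overlapped that of WT slice 2 (4.96 to 14.5). Tagln UMIs per Myh11 UMI were 13.4 and 8.86 at 7 dpi and 2.66 and 5.29 in WT slices at 21 dpi, while Tagln per Acta2 UMI stayed between 0.577 and 0.808 in Col1a1-rich spots of these 6 slices.

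Fibrillar collagen genes were among the 5 genes most like each marker at 7 dpi. Genes were ranked by mean r over both slices among 8944 genes with at least 200 UMIs in each. For Postn they were Col1a1 (0.644), Col1a2, Col3a1, Serpinh1 and Mgp (0.579), and for Cthrc1 they were Col3a1 (0.430), Col1a2, Serpinh1, Col1a1 and Lum (0.390). Serpinh1 encodes the collagen chaperone HSP47, and Lum encodes lumican, a proteoglycan of collagen fibrils. For Lrrc15 they were Col1a1 (0.256), Col3a1, Col1a2, Ppic and Serpinh1 (0.229). Acta2 had Col1a2 (0.432), Col3a1, Col5a2, Bgn and Col1a1 (0.411), and Tagln had Acta2 (0.382), Col1a2, Col3a1, Fn1 and Col1a1 (0.319). At 21 dpi, outside the rule for named genes, the ranked gene most like Acta2 was Myl9 (0.327), a myosin light chain of contractile cells. Tagln (0.375) and Myh11 (0.328) were higher in value. They had 170 and 36 UMIs in WT slice 2, below the 200 needed to be ranked.

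Other genes of the same programmes did not move as one group with the 5 markers. Of 23 tested matrix and TGFβ target genes of myofibroblasts, 5 were higher in Col1a1-rich spots at 7 dpi and 2 lower. Of all 12912 genes tested, 1.6% were higher and 2.3% lower. The median log2 difference of the list was 0.20 against -0.00 over all genes. Fbn2, a fibrillin (3.17), and Ccn4, a secreted matricellular protein (2.20), were among those higher at 7 dpi, and Ltbp2, a microfibril protein, was lower (-1.25). Of 11 contractile partners of αSMA, Tpm2, a tropomyosin, was higher (1.27) and Cnn3, a calponin, lower (-0.86), with a median of 0.14. All 23 matrix genes and 10 of 11 contractile partners were higher in Col1a1-rich than Col1a1-free spots at 7 dpi, where 21.2% of all genes were, and 20 and 10 were at 21 dpi, where 28.9% of all genes were. These lists were chosen with earlier results of these data known.

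Fibroblast and astrocyte lists held genes that were lower at 7 dpi, where the 5 markers were higher in value. Over all 12912 genes tested, 2.3% were called lower at 7 dpi. Of 9 fibroblast genes tested, 3 were lower, among them Dcn (-1.54) and Lum (-1.22), 2 collagen-binding proteoglycans, and the summed level of the 11 listed was 40.7 and 69.0 per 10000 at 7 dpi against 69.6 and 83.9 at 21 dpi. Of 6 meningeal fibroblast genes, 2 were lower at 7 dpi, Slc47a1 (-3.02) and Foxc1 (-0.80). Astrocyte genes were lower in 4 of 5 cases, led by Aqp4 (-1.10) and Gfap (-1.08), with sums of 10.8 and 11.4 against 20.2 and 23.0. Lyz2 (-0.88) was the only one of 8 macrophage and microglia genes that was called.

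Smooth muscle and pericyte genes bear directly on Acta2 and Tagln. The 9 smooth muscle genes summed to 0.768 and 0.753 per 10000 of Col1a1-rich spots at 7 dpi and 0.688 and 0.575 at 21 dpi, and none of the 9 was at 0 in these slices. Of the 6 tested, only Actg2, an enteric smooth muscle actin, had an edgeR adjusted p under 0.05. Its difference was 3.14 (edgeR adjusted p = 0.0076), from 12 and 52 UMIs at 7 dpi against 2 and 5 at 21 dpi. Actg2 passed the filter on low counts only through the slices where it was high, so this is a description and is not counted. The defining Myh11 was at 0.0590 and 0.0819 at 7 dpi and at 0.143 and 0.0596 at 21 dpi, from 5 to 36 UMIs, so its values overlapped where those of Acta2 did not. The 8 pericyte genes summed to 4.37 and 3.97 against 4.05 and 3.15. Of them 1 was called higher at 7 dpi, as were 1.6% of all genes. It was Cspg4 (1.59), which encodes the proteoglycan NG2. With edgeR, 0 of 6 endothelial and 0 of 3 oligodendrocyte genes were called, and 0 of these 9 had an unadjusted p under 0.05. The 3 oligodendrocyte genes summed to 29.1 and 28.8 at 7 dpi and to 20.2 and 95.4 in WT slices at 21 dpi, which differed widely from each other. Of 5 neuronal genes Slc17a7 was higher (0.92). The part of these cells in the marker levels was not tested.

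At 2 dpi Tagln was as frequent in tissue without Col1a1 as it was in Col1a1-rich spots at 7 dpi, which held for no other marker. It stood at 0.814 per 10000 over the whole slice at 2 dpi (1065 UMIs) and at 0.0501 at rest (82 UMIs), with 1 slice each and hence no test. In Col1a1-free spots it was at 0.789 at 2 dpi, and at 0.0467 to 0.131 in the slices at rest, 7 and 21 dpi. Acta2 over the whole slice was at 0.138 at 2 dpi and 0.0666 at rest, Postn at 0.0390 and 0.0122, and Cthrc1 at 0.0940 and 0.0942, while Lrrc15 gave 3 UMIs and 1 UMI. For each Acta2 UMI there were 7.84 Tagln UMIs in Col1a1-free spots at 2 dpi (exact 95% interval 6.48 to 9.54) and 0.755 at rest (0.551 to 1.03).

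Depth differed between these slices, since 21.7% of spots at 2 dpi held under 1000 UMIs. In spots with at least 10000 UMIs, Tagln was at 0.862 at 2 dpi (597 spots) and 0.0322 at rest (851 spots). In spots of 1000 to under 10000 UMIs it was at 0.662 and 0.295, and in the shallowest spots at 2 dpi it was at 0.0843, from 2 UMIs. The difference was therefore as large in the deep spots. Tagln was detected in 384 of 1726 spots (22.2%) at 2 dpi, 131 and 109 of which formed the largest connected patches, and a spot correlated with its neighbours at 0.518, beside 0.0994 for Acta2. Spots with Tagln held a median of 14711.5 UMIs and spots without it 1698.5, so the patches of detection also followed depth. Acta2 was sparser at 2 dpi, with 180 UMIs in 109 spots, and sparse counts lower such correlations. The genes most like Tagln at 2 dpi, also outside the rule for named genes, were Tgm1 (0.353), Fabp7 (0.325), Lgals1, Mrps6 and S100a6 (0.313). Tgm1 encodes a transglutaminase and Fabp7 a fatty acid-binding protein of astrocytes and progenitors. No collagen was among these 5, but Col1a1, with 139 UMIs at 2 dpi, lay below the 200 UMIs needed to be ranked.

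**Figure D5:**
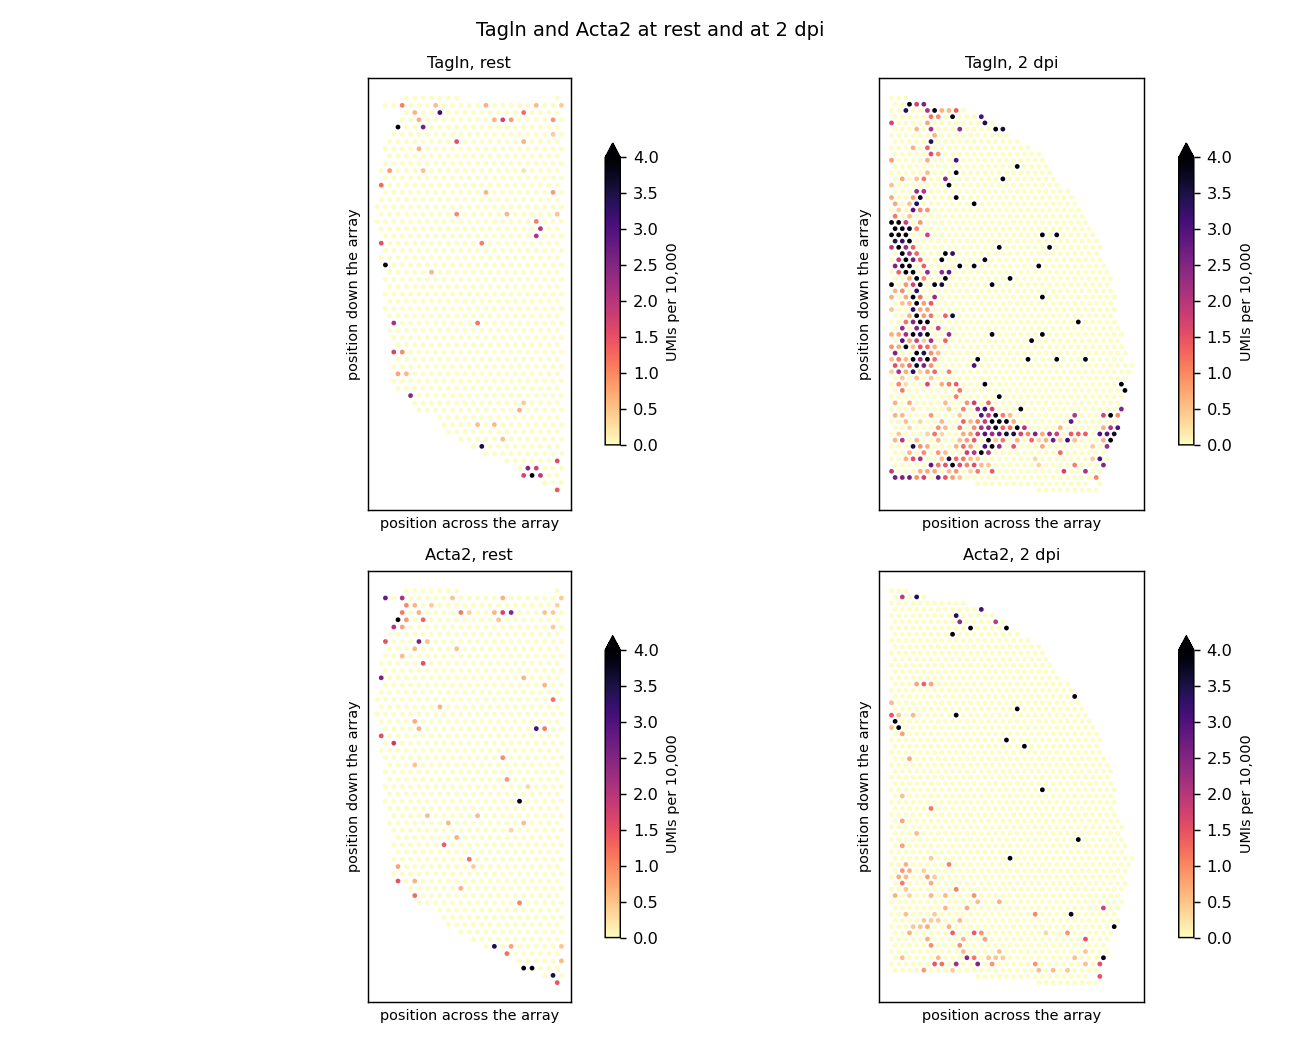
Spot maps of Tagln (top) and Acta2 (bottom) at rest (left) and at 2 dpi (right), with positions on the array on both axes and colour for UMIs per 10000, capped at 4. Connected patches of spots with Tagln reached 131 spots at 2 dpi, and those of Acta2, with fewer UMIs, reached 8. Isolated dark spots at 2 dpi are mostly shallow spots in which 1 UMI exceeds the cap.

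In deleter slices none of the markers was called as different from WT at 21 dpi. Cthrc1, the gene whose promoter drives the deleter allele, was lower in value in Col1a1-rich spots (0.132 and 0.101 per 10000 against 0.219 and 0.175, without overlap), with a difference of -0.72 on the log2 scale (SE 0.25, edgeR adjusted p = 0.71), and was the 1 marker of 4 tested with an unadjusted edgeR p under 0.05. DESeq2 called 0 markers as well. In Col1a1-free spots Cthrc1 was also lower in value in deleter slices, at 0.0858 and 0.0627 against 0.117 and 0.121, which was not tested. Deleter and WT slices at 21 dpi lay on separate capture areas, so genotype and capture area cannot be told apart. Postn, Acta2 and Tagln differed by -0.01, -0.01 and -0.05 (SE 0.14, 0.22 and 0.17), and Lrrc15 did not pass the filter on low counts. Only 1 gene was called lower in deleter slices, 0.00772% of 12945. It was Esr1 (-4.71), the oestrogen receptor, named after its value was seen, and 900 genes had an unadjusted edgeR p under 0.05. Lrrc15 in deleter slice 2 was at 0.0740, above both WT slices in value. Its interval (0.0445 to 0.1155) overlapped that of WT slice 1 (0.0154 to 0.0705). A spot correlated with its neighbours at 0.349 there, where 18 spots held Lrrc15, the largest patch being 5 spots. The value was 0.160 in slice 2 at 7 dpi, where 101 spots held it.

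Over whole slices, with no choice of spots, no marker was called between 7 and 21 dpi with edgeR and the main settings. Cthrc1 was at 0.240 and 0.446 per 10000 at 7 dpi and at 0.124 and 0.120 in WT slices at 21 dpi, a difference of 1.53 (SE 0.32, edgeR adjusted p = 0.20). Postn was at 0.200 and 0.856 at 7 dpi and at 0.186 and 0.251 at 21 dpi, and the 7 dpi slices, with 11.5% and 41.4% of spots Col1a1-rich, differed more from each other than slice 1 did from the later slices. Acta2 was at 0.204 and 0.517 and then 0.187 and 0.226, and Tagln at 0.149 and 0.347 and then 0.143 and 0.150. In this comparison 2 genes, 0.0127% of 15727, were called higher at 7 dpi, Xist and Ifi27l2a, named after their values were seen. Of the markers, Cthrc1 and Lrrc15 had an unadjusted edgeR p under 0.05. Over all genes, 1946 had an unadjusted edgeR p under 0.05 and DESeq2 called 398 in both directions, among them Cthrc1 (adjusted p = 0.0013). Marker results also became called in other alternative runs, some of them with a slice left out. The lack of marker calls over whole slices thus depended on the processing.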

How the data were processed

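The files the authors deposited hold UMI counts, whole numbers for each gene in each spot, and the position of the spots. Per the labels, processing used Space Ranger 2.0.0 and mm10, and no normalization had been applied. Tissue spots were joined into connected pieces, 2 per capture area, each taken as 1 slice and 1 mouse. The 4 spots without UMIs were left out. UMIs were summed per slice and spot class (Col1a1-rich at 5 or more Col1a1 UMIs per 10000, Col1a1-free at 0) and tested with edgeR 4.0.16 in R 4.3.3: TMM, filterByExpr, the quasi-likelihood F test, p values adjusted by Benjamini and Hochberg over all genes tested and a threshold of 0.05. Contrasts of spot classes used the 4 WT slices of 7 and 21 dpi in 1 fit with the slice as a block. A standard error (SE) is the log2 difference over the root of its F value. The edgeR step was tested on simulated data. Intervals on UMIs are exact at the 95% level, and a count of 0 was bounded at 3 UMIs.

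Alternatives were DESeq2 1.42.0, no filter on low counts, library size without TMM, Col1a1 thresholds of 2 and 10 per 10000, at least 3 Col1a1 UMIs, spots with at least 1000 UMIs, another group added to the fit, no slice block, each slice left out, and, chosen after seeing the data, the outer 2 rings. The members and lists were chosen with earlier results of these data known. Named genes are the 5 members, up to 4 called genes of a list with the largest difference, and the 5 genes most like each member at 7 dpi. Sparse counts limit Lrrc15 most. A gene that the naming rule picked is not reported here. Other experiments of the study were not analysed here.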

Additional observations from a re-analysis of the deposited data

Results flagged for a closer look

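The contrast of Cthrc1 between Col1a1-rich and Col1a1-free spots differed between the time points, being larger at 7 dpi by 2.21 on the log2 scale (edgeR adjusted p = 0.0083), a call lost at 2 Col1a1 UMIs per 10000 (edgeR adjusted p = 0.057) and without slice 2 at 7 dpi. Values at 2 dpi lie outside the tested comparisons, since that time has 1 slice. Over the whole slice they were above the slice at rest for Tagln (0.814 against 0.0501 UMIs per 10000), Acta2 (0.138 against 0.0666) and Postn (0.0390 against 0.0122), with exact 95% intervals that did not overlap, and these differences between 2 slices were not tested across mice.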

How the results depend on the processing

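No pairing between 7 and 21 dpi exists, because each slice came from a different mouse. Spot classes of the same slice were compared with the slice as a block. Genes called between 7 and 21 dpi in Col1a1-rich spots numbered 503, 304 with DESeq2, 1123 without a filter on low counts, 187 at 2 Col1a1 UMIs per 10000, 42 in the outer 2 rings and 236 (without slice 2 at 7 dpi) to 863 (without WT slice 1) with a slice left out. At 2 per 10000, Postn lost its call (1.46, edgeR adjusted p = 0.061). Lrrc15, whose call is not counted, was at 3.76 there as a description (edgeR adjusted p = 0.059). In the outer rings Postn (1.17), Acta2 (0.15) and Tagln (0.37) did. With a slice left out, Acta2 ran from 1.11 to 1.24 and Tagln from 0.97 to 1.25, both losing their calls without slice 2 at 7 dpi. Lrrc15, as a description, ran from 2.26 to 4.43. Cthrc1 kept its call under every alternative run here. Between spot classes at 7 dpi, DESeq2 called 4001 genes in place of 6046, and leaving out a slice gave 2928 to 6327. At 21 dpi Cthrc1 lost its call with DESeq2 (0.79, adjusted p = 0.068) and at 2 per 10000 (0.45, edgeR adjusted p = 0.24). Cthrc1 also lost it without WT slice 1 (0.56, the range reaching 1.01). Lrrc15, again as a description, was at 5.05 without WT slice 1, with a range starting at 3.73. The difference of that contrast gave 568 calls, 348 with DESeq2, 1433 without a filter, 364 at 2 per 10000 and 60 to 812 with a slice left out. Cthrc1 lost its call there at 2 per 10000 (1.96, 0.057) and without slice 2 at 7 dpi (1.95, the range reaching 2.58). Postn was called without a filter (1.20, 0.017) and ran from -0.29 to 1.89, turning direction without WT slice 1. Over whole slices 6 calls became 398 with DESeq2, 267 without a filter, 1 with deleter slices in the fit and 7 to 335 with a slice left out, and Postn turned to -0.10 without slice 2 at 7 dpi, with a range up to 2.04. Between deleter and WT slices 1 call became 8 with DESeq2, 270 without a filter, 0 at 2 and 4 at 10 per 10000, 3 with 7 dpi slices in the fit and 1 to 155 with a slice left out. Uncalled directions there turned for Postn and Acta2 without a filter (0.0085 and 0.0081) and for Tagln at 10 per 10000 (0.018), and with a slice left out Postn ran from -0.12 to 0.11, Acta2 from -0.40 to 0.27 and Tagln from -0.18 to 0.090. DESeq2 gave no adjusted p for Lrrc15 in the difference of the contrast. Over whole slices, marker results also became called in several alternative runs, some of them with a slice left out. The cause of these moves was not tested. Low counts limit Lrrc15 everywhere. In the outer rings all markers rest on fewer UMIs, from 17 to 189 per slice for Cthrc1 and from 81 to 183 for Acta2 at 7 dpi and in WT slices.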
